A study of Mus musculus with 11 samples.

Results

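Neighbouring H3K4me3 regions that lay close together were described in mammary tissue of wild-type mice. A member was a region above 501 and up to 2000 bp wide, on chromosomes 1 to 19, whose nearest other region on the same chromosome lay at most 3000 bp away from edge to edge. Of the 14738 regions in the list, 852 (5.78%) met the rule, among 9971 regions of this width. The members were chosen by the positions and widths in the H3K4me3 list itself, so their widths, gaps and scores are given below as a description.

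The tissue was whole mammary gland of wild-type mice on a mixed 129SV::FVB/N::C57BL/6 background, collected on day 6 of pregnancy (P6). It served for ChIP-seq of H3K4me3 and of STAT5A, with 1 library each, and the series has 11 samples in all. No second stage or replicate enters the values below, no input library was analysed here, and whether one entered the authors' lists is not stated. Thus no difference can be set against variation between animals and no p-value was computed. Whole tissue mixes epithelium, fat, vessels and other cells, so 2 neighbouring regions may come from different cells of the gland. Shares carry exact (Clopper-Pearson) 95% intervals and densities exact Poisson ones, and both cover counting error only. Sequencing depth is unknown, since the lists hold no reads.

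H3K4me3 is the trimethylated form of a lysine near the tip of histone H3. Methyltransferases of the SET1 and MLL families place it on the nucleosomes beside active and poised transcription start sites, and it is strongest at promoters with many CpG dinucleotides. At such a promoter the start site itself is often short of nucleosomes, so the mark can appear on either side of it. Genes that start back to back in opposite directions and alternative promoters of a gene are other arrangements in which marked stretches stand close together. STAT5A is phosphorylated after prolactin binds its receptor, enters the nucleus and drives alveolar development and milk protein genes in pregnancy. Which of these arrangements the pairs belong to was not analysed here, because regions were not assigned to genes.

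The 852 members were mostly parts of simple doublets. They fell into 555 loci. A locus was an unbroken run of regions with gaps of at most 3000 bp, each gap having a member on at least 1 side. A gap between 2 regions that were not members ended a locus, even where it was shorter than 3000 bp. Of these loci, 517 held exactly 2 regions. Another 34 loci held 3 regions and 4 loci held 4. With the neighbours that did not themselves meet the width rule, the loci contained 1152 regions, 151 of them at the minimum width of 501 bp and 149 broader than 2000 bp. The median locus spanned 4233 bp from outer edge to outer edge, with quartiles of 3230 and 5226 bp, and 2407 bp of it was marked. The nearest region beyond a locus stood at a median of 20.01 kb and a minimum of 0.7 kb. Members covered 0.984 Mb, or 4.60% of all bases in H3K4me3 regions.

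The loci that held the most regions were uneven in mark. Between 148640744 and 148654664 of chromosome 7, 4 regions scored 576.5, 201.4, 23.6 and 345.8 in genomic order. On chromosome 11, from 70039940 to 70054186, the scores of the 4 regions were 24.1, 56.1, 255.4 and 803.7. A locus spanning 47638346 to 47648853 on chromosome 17 scored 183.3, 288.4, 72.9 and 50.9, and another spanning 172372671 to 172381968 on chromosome 2 scored 55.8, 382.9, 74.0 and 41.0. In each of these loci the highest-scoring region stood beside at least 1 region with less than 50% of its score. Of the loci with 3 regions, the one with the highest summed score lay on chromosome 2 from 9790747 to 9811954, where a broad region of 17500 bp scored 1844.9 between a member of 984 bp at 105.7 and a member of 1607 bp at 167.9. These scores are the authors' own value per region, on a scale that is not stated.

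Gaps between neighbours were crowded near the smallest that the list contains. Over the 597 neighbouring pairs with at least 1 member, the median gap was 1599 bp, and no gap in the whole list was shorter than 501 bp. Pairs with gaps above 500 and up to 750 bp numbered 116, or 46.4 per 100 bp of gap. From 750 to 1000 bp there were 62, or 24.8 per 100 bp, and from 1000 to 2000 bp 205, or 20.5 per 100 bp. Beyond that the density changed little, with 21.4 per 100 bp from 2000 to 3000 bp and, among neighbours outside the rule, 19.8 from 3000 to 4000 bp and 18.4 from 5000 to 10000 bp. The limit of 3000 bp therefore cut through an even stretch of the distribution, and up to 10000 bp the only rise lay below 1000 bp.

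**Figure D1:**
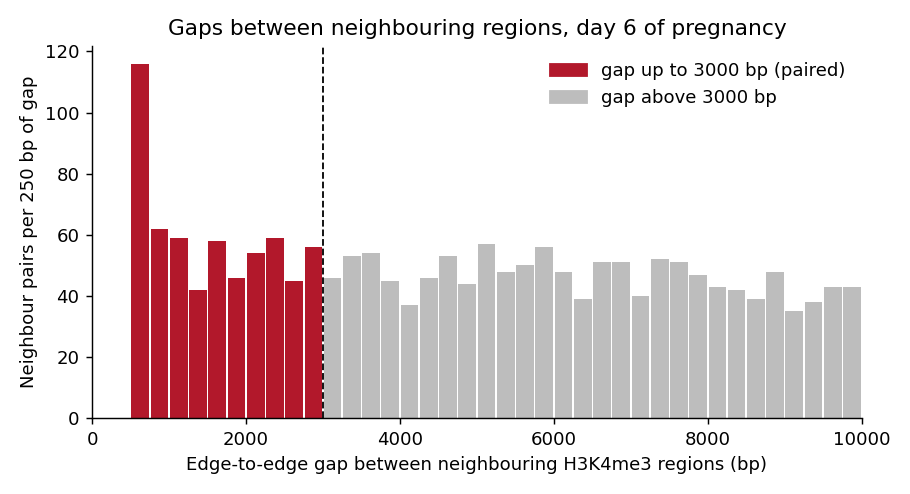
Number of neighbouring H3K4me3 regions (at least 1 of them above 501 and up to 2000 bp wide, chromosomes 1 to 19) per 250 bp of edge-to-edge gap, with the 3000 bp limit as a dashed line. The bar from 500 to 750 bp holds 116 pairs and the next one 62, and the bars on either side of the limit are of similar height.

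The smallest gaps joined regions of many sizes. On chromosome 10 a region of 501 bp from 126817144 to 126817644 with a score of 134.5 was followed, 501 bp later, by a member of 630 bp from 126818146 with a score of 88.5. On chromosome 11 members of 626 and 762 bp, scoring 107.7 and 97.3, stood 507 bp apart at 101488150 to 101490044. Elsewhere on that chromosome, at 96828299 to 96830068, members of 634 and 627 bp, scoring 35.6 and 39.5, were 509 bp apart. A gap of 509 bp on chromosome 5 separated a member of 1734 bp from 58106084 with a score of 72.7 from a broad region of 3681 bp with a score of 415.1. Within these pairs the scores differed 1.52-fold, 1.11-fold, 1.11-fold and 5.71-fold, in the order given.

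The 3 pairs on either side of the limit were as follows. Inside, a gap of 2993 bp on chromosome 5 divided regions of 1634 and 1856 bp, scoring 351.2 and 268.9. Gaps of 2992 bp divided 634 and 632 bp regions on chromosome 6, at 50.1 and 43.6, and a broad region of 3032 bp from a member of 1946 bp on chromosome 7, at 576.5 and 201.4. Outside, gaps of 3001, 3004 and 3006 bp on chromosomes 16, 6 and 13 divided regions of 1161 and 1033 bp, of 1688 and 1165 bp, and of 627 and 808 bp. Their scores were 313.8 and 192.9, 320.6 and 156.5, and 42.8 and 60.5. The widest of these regions lay inside the limit, and each side held a pair with both scores under 100.

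Paired regions were narrower and scored lower than isolated ones. Isolated regions were those of the same width range and chromosomes whose nearest neighbour lay beyond 3000 bp, 9119 in number. Members had a median width of 1126 bp (quartiles 803 and 1456), against 1264 bp (942 and 1571) for isolated regions. Their median score was 134.6 (quartiles 65.8 and 243), against 205.6 (106 and 307) for isolated regions. In the 4 width classes, up to 750, 1000, 1500 and 2000 bp, the median scores of members were 43.9, 83.3, 183.3 and 271.5, against 47.5, 98.6, 218.6 and 324 for isolated regions. Narrower regions more often had a close neighbour. The share with one was 14.4% of 1037 regions in the narrowest class, then 10.4% of 1896, 7.72% of 4093 and 6.42% of 2945 in the widest, and it was 18.1% of the 1551 regions at minimum width and 9.95% of the 2774 broad ones.

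The 6 members with the highest scores had neighbours that scored from 22.8 to 565.4. Members picked for high scores tend to outscore their neighbours through that choice alone. The strongest member, between 5490217 and 5492010 of chromosome 19, scored 697.5, and 564 bp away stood a broad region scoring 315.9. On chromosome 11 from 60589906 to 60591784 a member scored 573.4 beside a region of minimum width scoring 22.8. On chromosome 14 from 122505783 to 122507407 the member scored 564.3 and its neighbour 128.2. The member on chromosome 8 from 108378721 to 108380474 scored 513.2 and its neighbour 166.7. On chromosome 7 a member from 52378518 to 52380240 scored 511.9 beside a broad region at 565.4, and one from 52146960 to 52148573 scored 507.2 beside a region at 220.1. Only the chromosome 7 member beginning at 52378518 had a stronger neighbour than itself. The first 2 of these 6 members held a STAT5A peak, and the other 4 held none.

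Over all 597 pairs the stronger region had a median score of 250.5 and the weaker one 61.8, with a median ratio of 2.70 within the pair. The ratio was over 5 in 152 pairs (25.5%) and under 1.5 in 133 (22.3%). Scores of the 2 regions hardly went together (Spearman's rho 0.04 over 597 pairs from 1 library). Neighbours under the same width rule had a rho of 0.10 at 3000 to 10000 bp and 0.05 at 10000 to 100000 bp. Their median ratios were 2.18 and 2.21. The rule leaves out pairs of 2 broad or of 2 minimum-width regions. Since score rises with width, this choice can itself lower the rho and raise the ratios of pairs of unlike width. By kind, 285 pairs joined 2 regions of ordinary width, with a median ratio of 2.01, 157 joined a member to a broad region, with 3.56, and 155 joined a member to a region of minimum width, with 4.16. Pairs of 2 ordinary regions were set beside such neighbours farther apart. Their rho was 0.15 and their median ratio 2.01, against a rho of 0.16 and a ratio of 1.83 for 783 such neighbours 3000 to 10000 bp apart, and a rho of 0.07 and a ratio of 1.87 for 4028 at 10000 to 100000 bp.

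**Figure D2:**
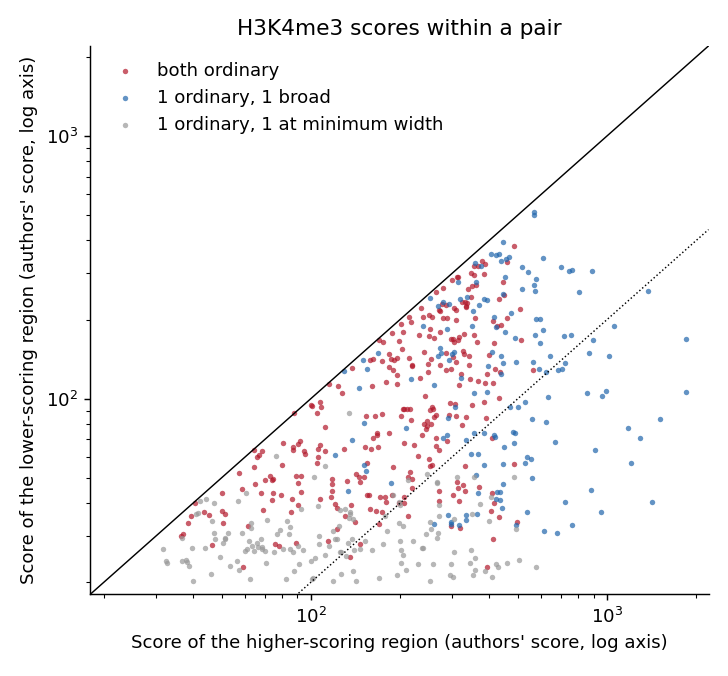
Score of the higher-scoring region of each of 597 pairs (x, log axis) against that of the lower-scoring one (y, log axis), coloured by the widths of the regions; the solid line marks equal scores and the dotted line a ratio of 5. Points fill the space below the solid line, and 152 pairs lie beyond the dotted one.

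The shortest gaps more often involved a region outside the ordinary width. Of the 116 pairs up to 750 bp apart, 41 joined 2 ordinary regions, 36 a member and a broad region and 39 a member and a region of minimum width. Of the 214 pairs from 2000 to 3000 bp apart, the counts were 112, 58 and 44. The weaker region had a median score of 45.0 in the shortest gaps and 91.4 in the longest, and the stronger one 205 and 273. The narrower region of the pair had a median width of 659 bp in the shortest gaps and 886 bp in the longest.

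The paired share differed between chromosomes and went with region density, with exceptions. Members made up 12.6% of the 832 ordinary-width regions of chromosome 11 (interval 10.4 to 15.1), 12.5% of 496 on chromosome 17 and 12.5% of 345 on chromosome 19. The lowest shares were 5.31% of 320 on chromosome 16 (3.12 to 8.37) and 5.86% of 580 on chromosome 9. Chromosome 11 also had the highest density of regions, 10.1 per Mb, and chromosome 16 had 4.75, whereas chromosome 9, with the second-lowest share, had 6.54. Over the 19 chromosomes the paired share went with region density (Spearman's rho 0.58, Pearson's r 0.80, and r 0.66 without the 2 chromosomes farthest from the median density). The part of region density in these shares was not tested.

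STAT5A peaks come from a library that the rule did not use. Of the 852 members, 96 (11.3%, interval 9.22 to 13.6) shared at least 1 bp with a STAT5A peak, against 1005 of 9119 isolated regions (11.0%, 10.4 to 11.7). Over all regions of the list the share was 11.7%, and on chromosomes 1 to 19 it was 12.0%, so the members stood near the background. Weighting the isolated regions to the widths of the members gave 10.1%, a difference of 1.18 percentage points, and weighting them to the members' scores gave 9.05%, a difference of 2.22 points. The interval of the members' share contained the width-weighted value and lay just above the score-weighted one, and members of the same locus are not independent of each other. The share was higher in members than in isolated regions on 6 of the 19 chromosomes and lower on 13. With a peak centre within 1000 bp of a region counted in place of an overlap, the width-weighted difference was 2.79 points (0.50 to 5.33 from the counting interval of the members' share). That window can reach a peak on a member's close neighbour, and 245 members had one at most 1000 bp away. Isolated regions have no such neighbour, so the rule itself can raise this difference.

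STAT5A peaks were found more often on wide and high-scoring members, as on isolated regions. In the 4 width classes, from narrow to wide, 11 of 149, 11 of 198, 37 of 316 and 37 of 189 members held a peak, which is 7.38%, 5.56%, 11.7% and 19.6%. The isolated regions of these classes held one in 4.84%, 8.07%, 10.9% and 15.0% of cases. Members were higher in 3 of the classes and lower in the second, with overlapping intervals in all 4. In the lower 5 of 10 score groups, up to a score of 199.9, 37 of 565 members (6.55%, 4.65 to 8.91) held a peak, against 300 of 4422 isolated regions (6.78%, 6.06 to 7.57). In the upper 5 groups, 59 of 287 members (20.6%, 16.0 to 25.7) did, against 705 of 4697 isolated regions (15.0%, 14.0 to 16.1). The intervals of the upper groups just touched.

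**Figure D3:**
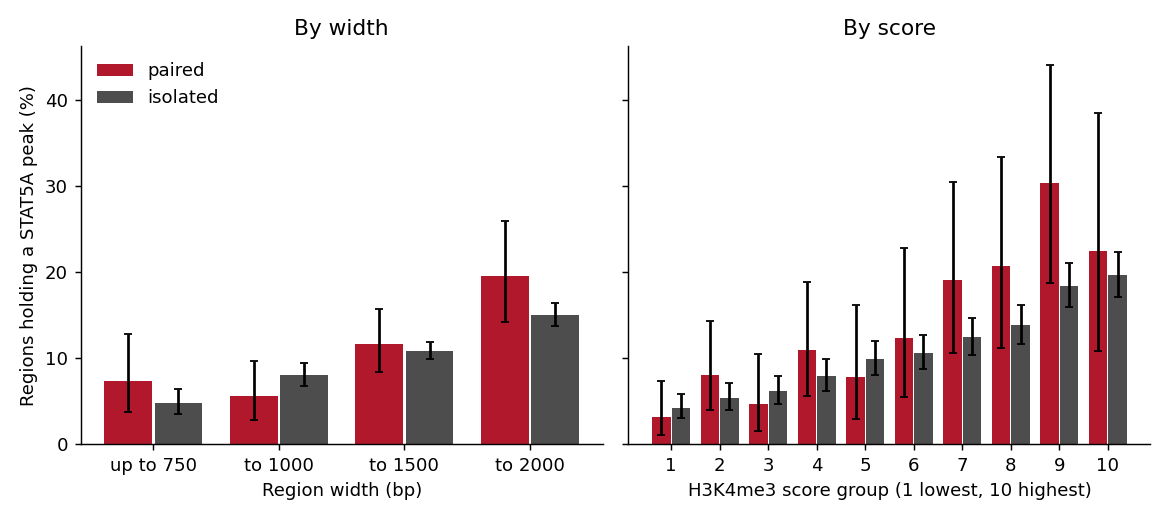
Percent of regions sharing at least 1 bp with a STAT5A peak, for paired regions (red) and isolated regions (grey), by width class on the left and by 10 equal score groups of ordinary-width regions on the right; bars carry exact 95% intervals. Shares climb at each step of width and score in isolated regions, and rise unevenly in paired ones. The intervals of paired and isolated regions overlap in each class and score group.

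Members carried 98 STAT5A peaks, 1.11% of the 8822 in the list, with a median score of 5.35 (quartiles 4.8 and 6.35), against a median of 6.0 for the whole list. The best peak of a member had a median of 5.4, as had that of isolated and of broad regions, while regions at minimum width had a median of 5.9 (quartiles 5.1 and 7.8). The highest peak, at 22.6, lay on chromosome 11 from 3023837 to 3024051, on a member of 1381 bp scoring 486.5. Within 100 kb of it were 8 other STAT5A peaks with scores up to 55.4. The next, at 14.6, lay on chromosome 7 from 38968440 on a member of 1899 bp, and the region of minimum width 2448 bp away held a peak too. Others followed on chromosome 4 from 147822316 with 13.7 and from 131830244 with 10.7, on chromosome 1 from 155596524 and on chromosome 13 from 37945851 with 9.7 each, on chromosome 5 from 124480780 with 9.5 and on chromosome 17 from 47644980 with 9.1. No member held 3 or more peaks. Chosen after their values were seen, 2 members held 2 peaks, 1 between 93250232 and 93251777 of chromosome 3 and 1 between 148353597 and 148354899 of chromosome 7.

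When a pair carried STAT5A, it was mostly on 1 region only, and mostly on the stronger. Of the 597 pairs, 115 (19.3%, 16.2 to 22.7) had a peak on 1 region, 9 (1.51%) on both and 473 on neither. Only 12.0% of all regions on chromosomes 1 to 19 held a peak, so pairs with a peak on both would be few in any case. In 82 of the 115 (71.3%, 62.1 to 79.4) the peak lay on the higher-scoring region, and among pairs of 2 ordinary regions in 41 of 55 (74.5%, 61.0 to 85.3). It lay on the wider region in 75 of the 115 (65.2%, 55.8 to 73.9). Members stronger than their neighbour were also wider, with a median of 1318 bp against 921 bp for weaker ones. Score and width were not told apart here. Members stronger than their nearest neighbour held a peak in 60 of 431 cases (13.9%, 10.8 to 17.6), against 36 of 419 members weaker than theirs (8.59%, 6.09 to 11.7). Isolated regions of the same score groups held one in 10.8% and 7.22% of cases, which is 3.09 and 1.37 points below the stronger and the weaker members. Both values lay within the intervals of the members, and widths were not matched. A member whose neighbour held a peak held one itself in 14 of 97 cases (14.4%, 8.12 to 23.0), against 82 of 755 (10.9%, 8.73 to 13.3) where the neighbour held none, a difference within the intervals.

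Pairs also differed by the kind of partner. A peak lay on at least 1 region in 50 of the 157 pairs with a broad region (31.8%, 24.6 to 39.7), in 60 of the 285 pairs of ordinary regions (21.1%, 16.5 to 26.3) and in 14 of the 155 pairs with a region of minimum width (9.03%, 5.03 to 14.7). The intervals of the first and the last did not overlap. Among all regions of chromosomes 1 to 19, paired or not, the width classes stood in the same order. A peak lay on 20.01% of 2774 broad regions, 11.0% of 9971 ordinary ones and 3.42% of 1551 at minimum width. The shares of the pairs therefore include the share of the partner's own width class, and a part of pairing beyond it was not tested. Counting the members alone, the share was 14.2% of 148 beside a broad region, 11.3% of 556 beside an ordinary one and 8.11% of 148 beside one of minimum width, with overlapping intervals. By gap, members up to 1000 bp from their neighbour held a peak in 21 of 245 cases (8.57%, 5.38 to 12.8) and those 2500 to 3000 bp away in 18 of 144 (12.5%, 7.58 to 19.03). The highest share, 24 of 157 (15.3%), lay at 1500 to 2000 bp, so there was no steady course with distance.

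The space between paired regions held STAT5A peak centres more thinly than the regions themselves. In 514 loci of 2 regions, 21 centres fell in 814 kb of gap, or 25.8 per Mb (16.0 to 39.4). Within the members of these loci there were 81 centres in 889 kb, or 91.1 per Mb (72.3 to 113). Windows of the same length outside the loci, set at the same distances from an outer edge, held 13 centres, or 16.0 per Mb (8.51 to 27.3). The intervals of gap and outer windows overlapped, and both densities lay above the 3.63 per Mb of chromosomes 1 to 19 as a whole. Between the middle of each member and its gap-side edge the density was 106 per Mb (77.7 to 141), against 76.5 (52.9 to 107) between the middle and the outer edge, and these intervals also overlapped.

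**Figure D4:**
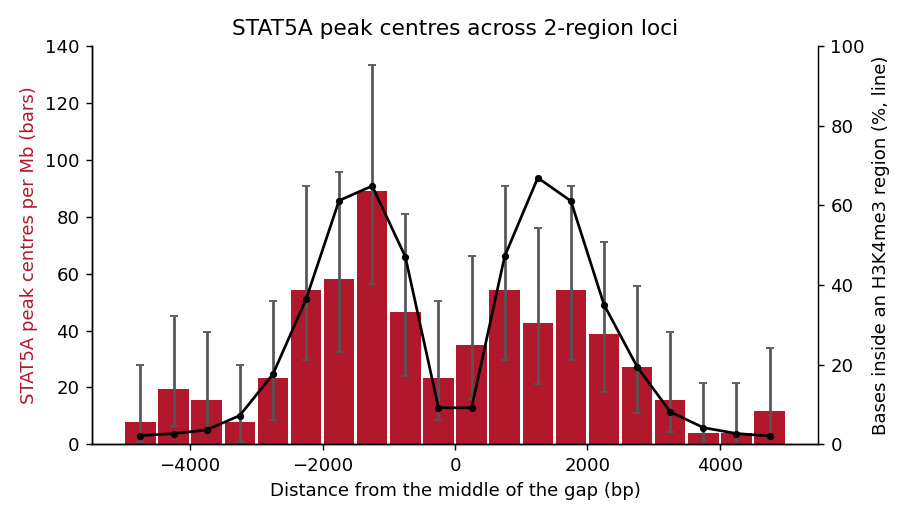
STAT5A peak centres per Mb (red bars, with exact 95% Poisson intervals) in 500 bp bins around the middle of the gap of 517 loci with 2 regions, and the percent of bases inside an H3K4me3 region (black line). Bins from 1000 to 2500 bp out hold 10 to 23 centres, and those beyond 3000 bp at most 5. On the left the centres peak with the mark, at 23 in the bin from 1000 to 1500 bp out. On the right they form no such hump. There the bin next to the middle holds 9 centres with 9.13% of bases marked, and the bin with the most mark (66.9%) holds 11.

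Of the 597 gaps, 22 (3.69%, 2.32 to 5.53) held a peak centre, each with 1. Their median score was 5.25, with a lowest of 4.3 and a highest of 9.5. The highest, on chromosome 5 from 124480780 to 124480994, lay in a gap of 779 bp and touched the member that begins at 124480990. On chromosome 11 a peak from 97885861 with a score of 7.3 stood 1107 bp from the nearer edge, in a gap of 2405 bp between regions scoring 255.9 and 569.5. Next came a peak on chromosome 19 from 46414339, which scored 6.7 and stood 542 bp from the nearer edge of a gap of 1719 bp, and then one on chromosome 15 that overlapped a region edge, starting at 102236252, with a score of 6.4. In all, 5 of the 22 also shared bases with a region of the pair.

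Pair loci were compared with single regions as long as the whole locus. Between 2000 and 3000 bp, a STAT5A peak centre lay within the span of 8 of 95 loci (8.42%, 3.71 to 15.9), against 351 of 1957 single regions (17.9%, 16.3 to 19.7), and the intervals did not overlap. These loci had a median of 1684 marked bases. At 3000 to 4000 bp the shares were 19.9% of 141 loci and 22.6% of 368 single regions, at 4000 to 5000 bp 26.1% of 142 loci and 23.3% of 120 single regions, and at 5000 to 7000 bp 31.9% of 119 loci and 43.2% of 44 single regions. In the 3 longer classes the intervals overlapped.

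STAT5A peaks that touched no H3K4me3 region were more frequent beside pair loci than beside isolated regions. Of the loci, 148 held a broad region, whereas no isolated region was broad. Within 10 kb of the outer edges, 85 of 555 loci (15.3%, 12.4 to 18.6) had such a peak, against 870 of 9119 isolated regions (9.54%, 8.95 to 10.2). At 1 to 3 kb the shares were 4.50% (2.94 to 6.58) beside loci and 2.25% (1.95 to 2.57) beside isolated regions, and at 3 to 10 kb 9.55% (7.24 to 12.3) and 6.24% (5.75 to 6.76), with intervals that did not overlap in either ring. At 10 to 30 kb they were 18.6% (15.4 to 22.0) and 16.0% (15.2 to 16.7), and overlapped. Loci without a broad region had a peak within 10 kb in 51 of 407 cases (12.5%, 9.47 to 16.1), with an interval that overlapped that of isolated regions. In the rings, these loci had shares of 2.95% (1.53 to 5.09) at 1 to 3 kb and 8.85% (6.27 to 12.0) at 3 to 10 kb. Both intervals overlapped those of isolated regions. Loci with a broad region had a peak within 10 kb in 34 of 148 cases (23.0%, 16.5 to 30.6). The share was 16.4% (14.9 to 17.9) of 2498 broad regions without a close neighbour, and these intervals overlapped too.

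**Figure D5:**
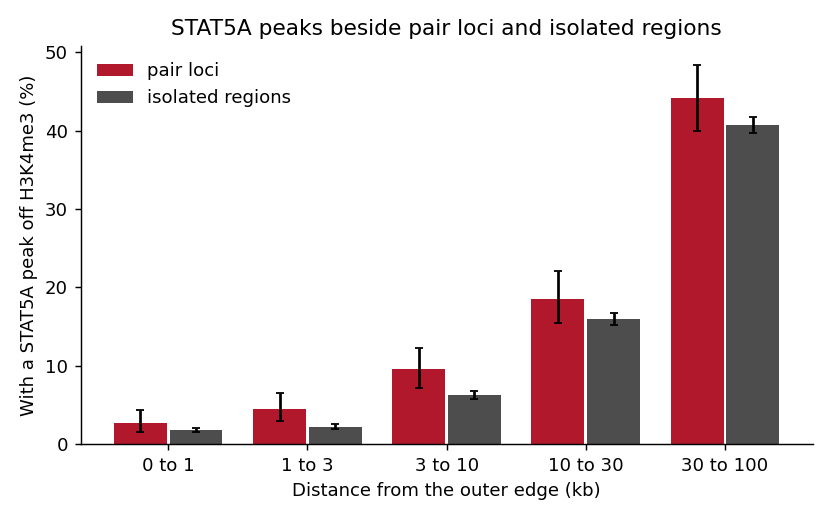
Percent of 555 pair loci (red) and of 9119 isolated regions (grey) with at least 1 STAT5A peak off H3K4me3 at a given distance from the outer edges, with exact 95% intervals. The intervals are apart at 1 to 3 and 3 to 10 kb and overlap at 0 to 1 kb and beyond 10 kb. The loci include 148 with a broad region, and no isolated region is broad.

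Members also lay in more crowded surroundings, with a median of 5 other regions within 100 kb (quartiles 3 and 8), against 2 (1 and 5) for isolated regions. Part of this difference is set by the rule, which gives each member a region within 3000 bp and isolated regions none. With 1 neighbour of each member left uncounted, 303 of 852 members and 4686 of 9119 isolated regions had 0 to 2 others. With isolated regions weighted to the same number of other regions, leaving 1 neighbour of each member uncounted, an off-region peak lay within 10 kb of 14.9% of members and 9.62% of isolated regions. The difference was uneven over the classes of crowding. It was 13.3 points with 3 to 5 other regions, where 50 of 216 members had such a peak (23.1%, 17.7 to 29.4) against 9.84% of 2723 isolated regions, and 3.24, 0.17 and 4.98 points with 0 to 2, with 6 to 9 and with 10 or more. Outside the class with 3 to 5 the intervals overlapped. Members of the same locus can share such a peak and are not independent, so the members' intervals are too narrow in all classes. The members here include 148 whose nearest neighbour was broad, and the weighting did not take the width of the neighbour into account. The parts of broad neighbours and of crowding finer than these classes were not tested in this comparison.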

How the data were processed

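ChIP-seq of H3K4me3 and of STAT5A in P6 mammary tissue was used, 1 library each. Per the labels' protocols, frozen tissue was powdered, fixed with formaldehyde and sonicated, and antibodies against H3K4me3 or STAT5A were used for precipitation. CASAVA, Bowtie and HOMER and the mouse build mm9 appear in the submitters' processing notes. Versions, settings and any use of an input library were not stated. The deposited lists give a position and a score per region or peak; the score is the authors' own value, and its scale is not stated. It served only to describe, rank or group items within a list. Each list comes from a single library. All STAT5A peaks were 215 bp wide, and no H3K4me3 region had a width between 501 and 626 bp. Calling in such steps, and the smallest gap of 501 bp, set which pairs can be seen.

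Gaps, loci, overlaps of at least 1 bp and intervals were computed with Python 3.11.15, pandas 2.3.3 and scipy 1.17.1, and the steps were tested on simulated lists with known pairs. Positions are in mm9 and count from 1. Named are the 6 highest-scoring members, the 4 smallest gaps, the 3 pairs on either side of the limit, the 5 loci with the most regions, the 8 highest STAT5A peaks on members and the 4 highest in gaps. Members and comparisons were chosen with earlier results of these data known. The expression table of the series was not used, since its loci carry no positions.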

Additional observations from a re-analysis of the deposited data

How the results depend on the processing

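No paired analysis was possible because each assay had 1 library and no result comes from a replicated test. Of 48 values recomputed under other settings, 33 stayed within the counting interval of the reported value, or within 1.5 times it for the number of members, and 15 did not. All 11 alternative differences between paired and isolated regions stayed within it, from -0.13 points with STAT5A peaks at or above the median score to 2.81 points without the lowest 25% of H3K4me3 scores. With STAT5A peaks at or above the median score, 3.76% of members, 0.84% of gaps and 7.39% of loci held one. A peak centre within 1000 bp counted for 14.4% of members. Without the lowest 25% of H3K4me3 scores, 379 members were left, with a share of 14.8%, a median gap of 1894 bp, a rho of -0.11 between scores and 28.0% of loci with a peak. Gaps of at most 2000 bp gave 547 members and a median gap of 1071 bp, and gaps of at most 5000 bp gave 1397 and 2453 bp. With both regions of ordinary width there were 562 members and a rho of 0.16. Apart from changes that the number of peaks, regions or base pairs allowed brings by construction, the cause was not tested. Unknown depth limits what an absent peak shows.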

Other observations

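The X chromosome, which the rule leaves out, had 13 ordinary-width regions with a neighbour within 3000 bp among its 442 regions, and adding them brought the number of members to 865 and left the STAT5A share at 11.2%.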
